A study of Mus musculus with 11 samples.

Results

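The measurement described here is a difference between 2 effects: the change that followed antisense knockdown of the long noncoding RNA Pint, minus the change that followed siRNA knockdown of p53. It was computed for every probe set whose log2 level was over 6 in at least 2 arrays of any group, which kept 26038 of the 34760 probe sets on the array, and it used all 11 arrays of the series. Taking the probe set with the highest mean level for each gene with a single symbol gave 16147 genes, and every count below is of genes unless probe sets are named. A positive difference means that a transcript was higher after loss of Pint than after loss of p53, each relative to its own control, and a negative difference means the opposite.

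All arrays came from mouse embryonic fibroblasts of a C57BL/6 x 129/SvJ background that carry p53 LSL/LSL, an allele in which a stop cassette flanked by loxP sites silences p53 until Cre removes it. Every culture, controls included, received AdenoCre for 24 h at a moi of 5, and doxorubicin at 150 nM for 12 h, which was added 24 h after transfection. The groups were control siRNA (3 arrays), p53 siRNA (3 arrays), control ASO (2 arrays) and Pint ASO (3 arrays). The Pint ASO was a pool of chemically modified gapmers, short antisense DNAs that direct RNase H to a transcript, so the target and the kind of reagent changed together, and their parts in a difference cannot be told apart. Adenovirus acts on a population of cells, and how many cells regained p53 was not measured. The labels do not say whether the arrays of a group came from separate cultures. Each p-value is therefore set against array-to-array spread alone, which may be technical.

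p53 is a transcription factor that DNA damage stabilizes. It switches on genes of cell-cycle arrest, DNA repair and cell death, and through its target p21 and the DREAM repressor complex it silences the genes of DNA replication and mitosis. Pint is itself a transcript that p53 induces, and it was studied as an RNA that binds the Polycomb repressive complex PRC2. The question asked by the difference is which gene programmes respond to loss of the RNA otherwise than to loss of the factor upstream of it.

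The targeted transcript separated the arms. Lncpint, the Pint gene, stood at log2 levels of 9.43, 9.88 and 9.53 with control siRNA, 9.13, 9.02 and 9.06 with p53 siRNA, 10.41 and 10.23 with control ASO, and 8.60, 8.48 and 8.55 with Pint ASO. Its arrays did not overlap within either arm, and it was lower after both knockdowns. The fall was larger with Pint ASO, by a log2 difference of -1.23 ± 0.16 (SE; adjusted p = 0.00064). Its control ASO arrays were 0.71 above its control siRNA arrays (adjusted p = 0.014), and the part of that shift in the difference was not tested. p53's own gene was not analysed here, so the depth of the p53 knockdown, which enters every difference, is not checked.

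The difference was called (adjusted p under 0.05) for 3892 of the 16147 genes, or 24.1%, of which 1890 were higher (11.7% of those tested) and 2002 lower (12.4%). The difference was 1 log2 unit or more in 369 of the called genes, 117 of them higher and 252 lower. The median difference over all genes tested was -0.005, and the median width of a 95% interval was 0.23 to either side of its estimate. The separate effects were called for 25.2% of genes with Pint ASO and 21.3% with p53 siRNA, and across the 16147 genes the 2 effects had a Pearson correlation of 0.0082, a description over genes, which are not independent replicates.

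Genes called in both arms divided almost evenly by direction. Of the 16147 genes tested, 1492 were called in both arms, 790 in opposite directions and 702 in the same direction. All 790 were called for the difference, 530 of them lower with Pint ASO and higher with p53 siRNA and 260 the other way. In each of these 790 genes the arrays did not overlap in either arm. Both the call for the difference and the lack of overlap largely follow from choosing genes with calls of opposite sign, and are no separate support. The rest of the 3892 called genes were 1557 with only the Pint ASO effect called and 1126 with only the p53 siRNA effect called. A further 203 were called in both arms in the same direction but unequally, and for 216 neither arm was called on its own. An effect that was not called is not shown to be absent.

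**Figure D1:**
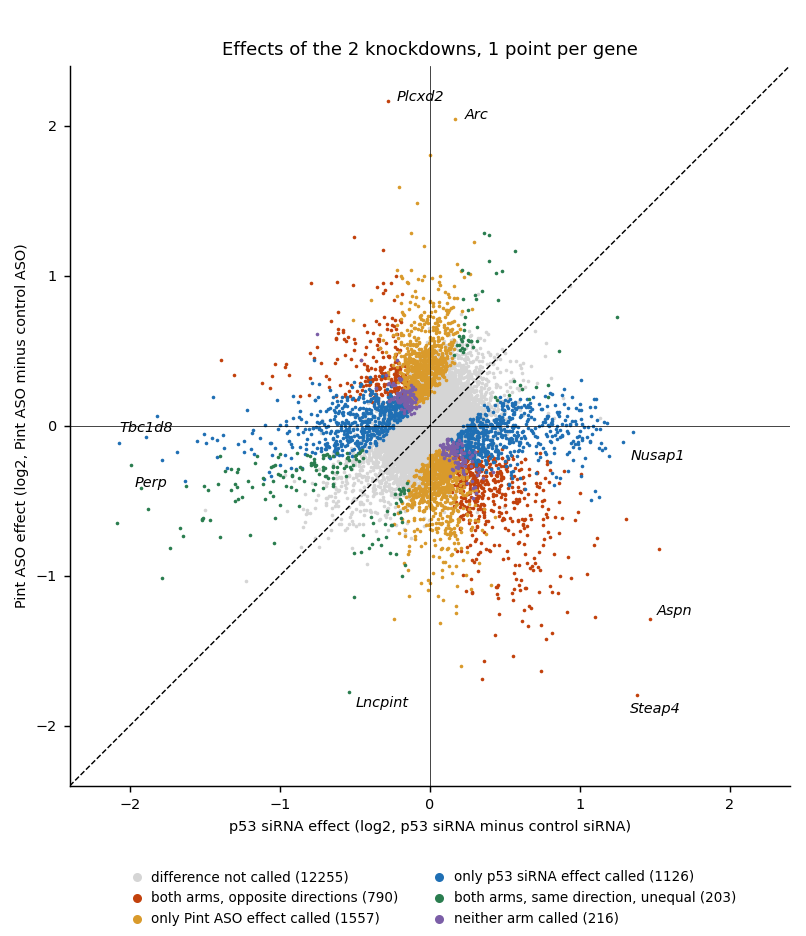
Each point is 1 of 16147 genes, with the p53 siRNA effect on the x axis and the Pint ASO effect on the y axis, both in log2 units, coloured by the arm or arms whose own effect was called. The dashed line marks equal effects, and the 790 genes that moved in opposite directions lie in the upper left and lower right quadrants, away from it.

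**Figure D2:**
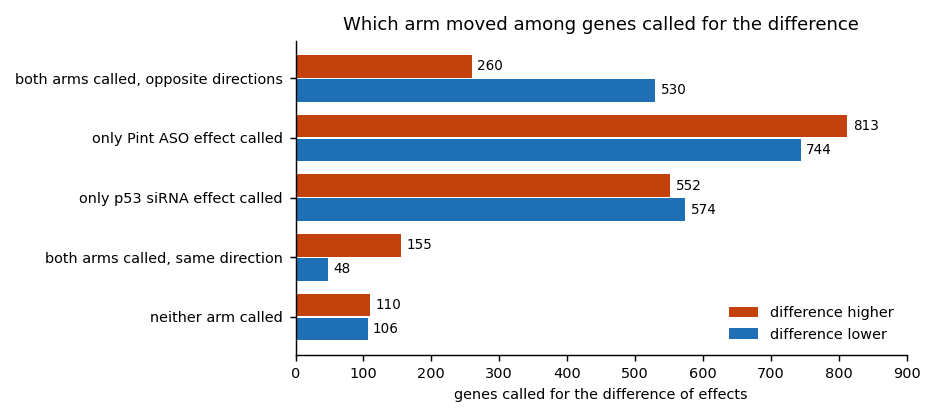
Bars count the 3892 genes called for the difference, split by the arm whose own effect was called and by the sign of the difference. Genes with only the Pint ASO effect called were the most numerous, at 813 higher and 744 lower, and the genes that moved in opposite directions had 530 lower and 260 higher.

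The reagent controls differed from each other as well. Control ASO and control siRNA differed in 776 of the 16147 genes tested. Among the 3892 genes called for the difference they differed in 484, a larger share. In 402 of the 484 the shift of control ASO from control siRNA had the same sign as the Pint ASO effect, whether or not that effect was called. The difference itself takes each effect against its own control, and the part of the control shift in it was not tested. Correlations between arrays of a group were 0.993 to 0.995 and between groups 0.983 to 0.993.

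Each of the 15 genes with the lowest differences rose with p53 siRNA and fell with Pint ASO. Steap4, a metalloreductase induced by inflammatory cytokines, stood at 9.95, 9.93 and 10.12 with control siRNA, 11.45, 11.28 and 11.41 with p53 siRNA, 9.40 and 9.35 with control ASO, and 7.66, 7.75 and 7.34 with Pint ASO. Its p53 siRNA arrays were 2.61-fold above their controls and its Pint ASO arrays 3.46-fold below theirs, without overlap, and the difference was -3.17 ± 0.16 (SE; adjusted p = 4.5e-06). Aspn, a small leucine-rich proteoglycan of the matrix, stood at 8.57, 8.16 and 8.52 with control siRNA, 9.67, 9.89 and 10.09 with p53 siRNA, 7.84 and 7.93 with control ASO, and 6.84, 6.81 and 6.14 with Pint ASO. Its groups did not overlap in either arm, and the difference was -2.75 ± 0.29 (adjusted p = 0.00019).

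The other 13 had differences between -2.38 and -1.96. They were the chemokine gene Cxcl15 (-2.38), the serine protease inhibitor gene Serpinb1a (-2.37), the melanocortin receptor gene Mc5r (-2.35), the matricellular gene Ccn5 (-2.20), the immunoglobulin superfamily gene Igsf10 (-2.20), Wfdc17 (-2.15), the leucine-rich repeat proteoglycan genes Prelp (-2.09) and Ogn (-2.07), the inducible nitric oxide synthase gene Nos2 (-2.04), the acute-phase gene Serpina3n (-2.03), Islr (-1.99), the oxysterol hydroxylase gene Cyp7b1 (-1.97) and AW551984 (-1.96). Cxcl15 fell from 8.49 and 8.53 with control ASO to 6.93, 6.97 and 6.71 with Pint ASO, and rose from 9.16, 9.09 and 9.28 with control siRNA to 9.87, 9.90 and 9.98 with p53 siRNA. Its control ASO arrays were also below its control siRNA arrays, by 0.67 (adjusted p = 0.0043).

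The 15 highest differences were of several kinds. For Tbc1d8, a Rab GTPase-activating protein gene, only the p53 siRNA effect was called: 10.21, 10.27 and 10.15 with control siRNA became 8.06, 8.14 and 8.21 with p53 siRNA, a 4.20-fold fall, while the control ASO arrays were at 10.00 and 9.98 and the Pint ASO arrays at 9.91, 9.91 and 9.80. The difference for Tbc1d8 was 1.96 ± 0.09 (adjusted p = 2.7e-06). The same held for the phosphatase subunit gene Ppp2r2c (1.89), the homeobox gene Nkx2-9 (1.82) and the AMP-activated kinase gene Prkaa2 (1.63), which fell by 1.82, 1.90 and 1.44 with p53 siRNA and had Pint ASO effects of 0.07, -0.07 and 0.19.

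For Arc, an immediate-early gene best known from neurons, only the Pint ASO effect was called. Arc stood at 8.27, 8.17 and 8.38 with control siRNA and at 8.37, 8.46 and 8.50 with p53 siRNA, whose arrays overlapped, and rose from 8.77 and 8.71 with control ASO to 10.64, 10.90 and 10.81 with Pint ASO, a 4.12-fold rise. The difference was 1.87 ± 0.12 (adjusted p = 1.4e-05). Rnf225 (1.80), Pld4 (1.80) and Ephx3 (1.57) also rose with Pint ASO, and their p53 siRNA effects were not called.

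In other genes the arms moved apart. Plcxd2, a phospholipase C domain gene with the highest difference of all, rose 4.49-fold with Pint ASO, from 8.31 and 8.23 to 10.36, 10.55 and 10.40. It was lower by 0.28 with p53 siRNA, at 8.69, 8.64 and 8.62 against 9.02, 8.91 and 8.87, and the difference was 2.45 ± 0.09 (adjusted p = 2.3e-06). Its control ASO arrays were 0.66 below its control siRNA arrays (adjusted p = 0.0016), against the direction in which Pint ASO moved it. Arap2 (1.83), the Notch effector Hey2 (1.76), the cornified envelope gene Lce1h (1.75), the collagen-binding integrin gene Itga2 (1.64) and Fam110c (1.57) likewise rose with Pint ASO and fell with p53 siRNA. Perp (1.73), described with the p53 targets, was the 1 gene of the 15 called lower in both arms.

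**Figure D3:**
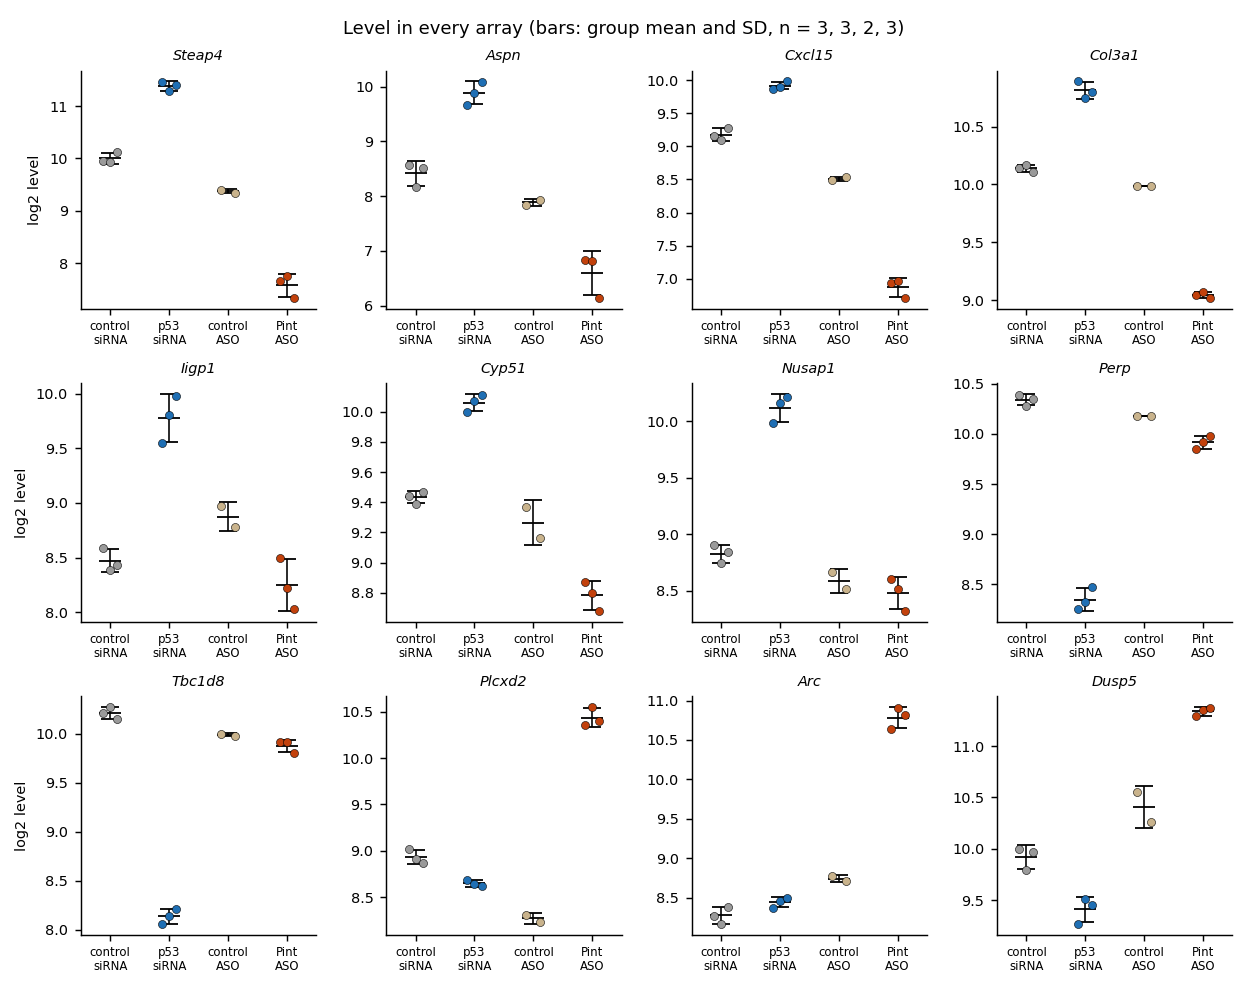
Log2 levels of 12 genes in every array, with bars for the group mean and SD (n = 3 control siRNA, 3 p53 siRNA, 2 control ASO and 3 Pint ASO). Steap4, Aspn, Cxcl15, Col3a1, Iigp1 and Cyp51 moved up with p53 siRNA and down with Pint ASO, Nusap1, Perp and Tbc1d8 moved mainly with p53 siRNA, Plcxd2 and Arc mainly with Pint ASO, and Dusp5 up with Pint ASO and down with p53 siRNA.

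Functions were read from 32 gene lists that together held 820 of the genes tested. Of these, 437 (53.3%) were called for the difference, against 22.5% of the genes in no list. Over all genes tested the share was 24.1%, and the count of each list below is to be read beside it. The lists had been drawn up with earlier results of these data in view, so their share is a description of the lists and not evidence about function.

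**Figure D4:**
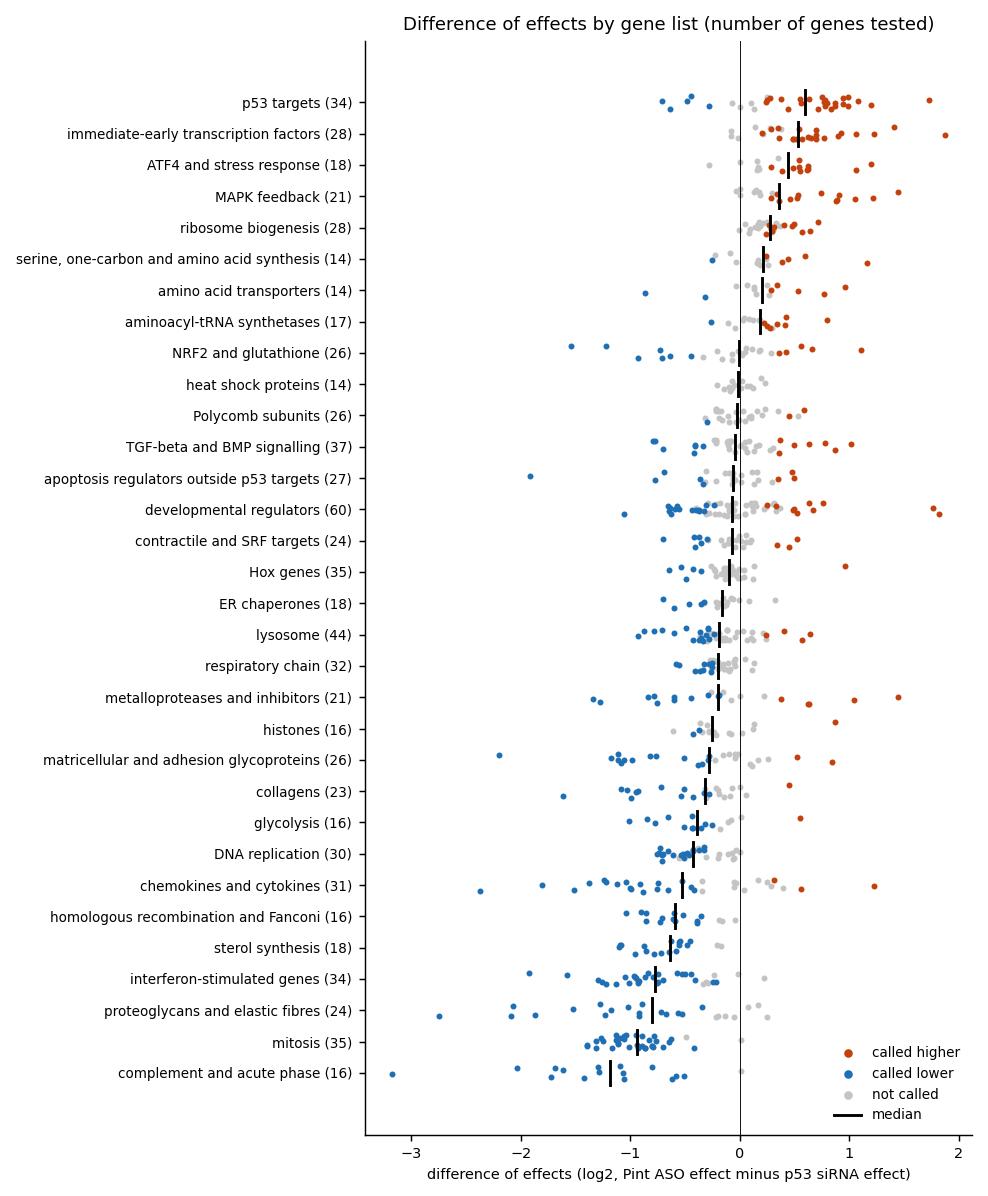
Each row is a list, with the number of genes tested in parentheses, each point is the difference of effects of 1 gene in log2 units, and the black bar is the list's median. Medians ran from 0.59 for the p53 targets to -1.19 for complement and acute phase genes, and the heat shock genes, at -0.02, held no called gene.

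Nearly all mitosis genes separated the arms, with calls in the p53 arm alone. Of 35 genes of the mitotic machinery, 33 were lower in the difference, none was higher, and the median was -0.94. p53 siRNA raised 34 of the 35, with a median effect of 0.97. No Pint ASO effect was called, and their median was 0.00. Nusap1, a spindle microtubule protein, stood at 8.90, 8.74 and 8.84 with control siRNA, 9.98, 10.16 and 10.21 with p53 siRNA, 8.66 and 8.51 with control ASO, and 8.60, 8.51 and 8.32 with Pint ASO. The p53 siRNA arrays stood above all others and the Pint ASO arrays overlapped their controls, for a difference of -1.40 ± 0.13 (adjusted p = 0.00011). The kinesin Kif2c (-1.40), the spindle protein Ckap2l (-1.32) and the kinetochore protein Nuf2 (-1.31) followed. The exceptions were the chromosomal passenger gene Cdca8 (-0.49, adjusted p over 0.05) and the cyclin F gene Ccnf (0.01). The control ASO arrays were already lower than the control siRNA arrays in this list, by a median of 0.28, with 6 genes called.

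DNA replication and recombinational repair went the same way and less far. Of 30 replication genes, 18 were lower and none higher, with a median of -0.43. p53 siRNA raised 25 and Pint ASO raised 7, so that here both effects often had the same sign. The thymidylate synthase gene Tyms (-0.76) and the thymidine kinase gene Tk1 (-0.73) had the lowest differences together with the clamp loader genes Rfc4 (-0.74) and Rfc3 (-0.71). The calls of Rfc4 and of Rfc3 were each lost in most fits that left out 1 array. Of 16 genes of homologous recombination and the Fanconi anaemia pathway, 13 were lower and none higher, with a median of -0.60. They were led by the crosslink repair genes Fanci (-1.04), Fancb and Fancd2 (both -0.86) and the recombination motor Rad54l (-0.90). Among 16 histone genes, which are transcribed in S phase for the most part, only 3 were called, a share of 18.8% against 24.1% of all genes. They were the linker histone genes H1f1 (0.87) and H1f5 (-0.42), and H2az1 (-0.37). Among the fits that left out 1 array, H1f5 kept its call only without p53 siRNA replicate 1, and H2az1 lost its call in some.

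The promoters of the mitotic genes share sequence features, and the stretches below are given to show the letters themselves. The list was drawn up by function, so the matches describe mitotic genes whatever the arrays showed, and no cause was tested with them. The windows run from 250 bases before to 50 bases after each RefSeq transcription start in GRCm38.p6. Of the genes tested, 12702 (78.7%) have one, and every share covers only genes with a window. The cell-cycle genes homology region, or CHR, is the element that DREAM reads, and it was searched as TTTGAA or TTCGAA on either strand. It lay in the windows of 24 of the 29 mitosis genes with a window (82.8%), against 16.5% of all genes with one. For the 25 replication genes with a window the count was 5. The CCAAT box, searched as CCAAT on either strand, was in 24 of the 29 mitosis windows (82.8%) and in those of 41.5% of all genes with a window. Over all genes called lower the CHR letters were in 21.4% of windows, and over all genes called higher in 13.2%. These are matches of letters and not measured binding. The stretches, each 80 bases of the part of the window before the start, are given 5′ to 3′ on the strand of the gene with the CHR match in capitals, for Prc1, a spindle midzone protein (chr7:80294396-80294475, plus strand), Ckap2l (chr2:129297213-129297292, minus strand) and Kif2c (chr4:117178833-117178912, minus strand).
Prc1: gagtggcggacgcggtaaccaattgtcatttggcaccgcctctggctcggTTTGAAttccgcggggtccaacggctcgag
Ckap2l: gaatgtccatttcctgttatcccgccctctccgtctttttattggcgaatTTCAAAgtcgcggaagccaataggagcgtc
Kif2c: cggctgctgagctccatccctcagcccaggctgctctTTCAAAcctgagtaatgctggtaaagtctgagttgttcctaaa

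The direct targets of p53 moved with p53 alone for the most part. Of 34 targets tested, 24 were higher in the difference and 5 lower, with a median of 0.59. p53 siRNA lowered 25 of them, with a median effect of -0.53, and the median Pint ASO effect was -0.01, with 5 genes raised and 5 lowered. Perp, a membrane protein of p53-dependent apoptosis, went from 10.39, 10.28 and 10.35 with control siRNA to 8.25, 8.32 and 8.47 with p53 siRNA, and from 10.18 and 10.18 with control ASO to 9.85, 9.92 and 9.98 with Pint ASO. It fell in both arms without overlap, 3.98-fold with p53 siRNA and 1.20-fold with Pint ASO, for a difference of 1.73 ± 0.09 (adjusted p = 7.5e-06). Pidd1 (0.99), a death-domain protein, fell by 1.01 with p53 siRNA and had a Pint ASO effect of -0.02.

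In 5 p53 targets the knockdowns had opposite effects. Sesn2, a sestrin that restrains mTORC1, rose from 11.71 and 11.72 to 12.23, 12.27 and 12.37 with Pint ASO and fell from 11.36, 11.40 and 11.32 to 10.75, 10.72 and 10.73 with p53 siRNA, with no overlap, and the difference was 1.20 ± 0.07 (adjusted p = 1.1e-05). The stress-induced polo-like kinases Plk2 (1.08) and Plk3 (0.94) and the exonuclease Aen (0.87) did the same, and the autophagy gene Dram1 (-0.71) did the reverse. The other targets that were lower in the difference were Sesn1 (-0.63), Ckap2 (-0.48), the epoxide hydrolase gene Ephx1 (-0.45) and the death receptor gene Fas (-0.28). Ephx1 and Fas fell in both arms, more with Pint ASO. The count of 5 became 3 in each of the 6 fits that left out 1 control siRNA array, control ASO replicate 2, or p53 siRNA replicate 2 or 3.

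Growth-factor signalling genes were, like the p53 targets, mostly higher in the difference. Immediate-early genes, many of which encode transcription factors, are induced by serum and stress within minutes through SRF and other factors that need no new protein. Of 28 such genes, 21 were higher in the difference and none lower, with a median of 0.53. Pint ASO raised 21, with a median effect of 0.42, and the median p53 siRNA effect was -0.04. Csrnp1 (1.41), Egr1 (1.23) and Ier2 (1.06) followed Arc. Egr1 stood at 10.99, 10.94 and 10.93 with control siRNA, 10.73, 10.73 and 10.72 with p53 siRNA, 11.42 and 11.38 with control ASO, and 12.42, 12.40 and 12.38 with Pint ASO. The 4 groups did not overlap, and the difference was 1.23 ± 0.06 (adjusted p = 3.9e-06). The control ASO arrays were above the control siRNA arrays too, by 0.45 for Egr1 and by a median of 0.15 over the list, with 8 genes called.

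The feedback regulators that ERK signalling induces were also higher in the difference, and more of them moved in both arms. Of 21, 13 were higher in the difference and none lower, with a median of 0.36. Pint ASO raised 12 and p53 siRNA lowered 10, and 7 moved in opposite directions. The ERK phosphatase gene Dusp5 stood at 10.00, 9.79 and 9.97 with control siRNA, 9.27, 9.51 and 9.45 with p53 siRNA, 10.55 and 10.26 with control ASO, and 11.29, 11.35 and 11.37 with Pint ASO. Its groups were apart in both arms, and the difference was 1.45 ± 0.14 (adjusted p = 0.00011). The EGF receptor ligand gene Hbegf (1.22), Phlda1 (1.05) and the RAS inhibitor gene Spry4 (0.91) showed the same pattern. Lif, an interleukin-6 family cytokine gene in the chemokine list, had a difference of 1.22. Ranked by the smaller of their 2 effects, the 5 leading genes that rose with Pint ASO and fell with p53 siRNA were Lce1h, Fam110c, Lif, Taf4b (1.37) and Lcat (1.35).

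The response to amino acid shortage and stress, which the factor ATF4 drives, was higher in the difference. Of 18 genes, 11 were higher in the difference and none lower, with a median of 0.44. Pint ASO raised 17 and p53 siRNA raised 7 and lowered 3. Apart from Sesn2 the largest differences were in the phosphatase subunit gene Ppp1r15a (1.06), which restores translation after stress, the pseudokinase gene Trib3 and the glutathione-degrading enzyme gene Chac1 (both 0.62). In 14 of the 18 genes the control ASO arrays were already above the control siRNA arrays, by a median of 0.34, and the part of that shift in the difference was not tested. The C/EBP-ATF response element core, searched as TGATGNAA on either strand, was in the windows of 7 of the 18 genes (38.9%), against 2.86% of all genes with a window. Over all genes called higher it was in 3.45% of windows, and over all genes called lower in 2.72%. The list was drawn up by function, so its share describes these genes whatever the arrays showed, and no cause was tested with it. Stretches of 80 bases upstream of the start are shown for Chac1 (chr2:119351013-119351092, plus strand) and Herpud1 (chr8:94386281-94386360, plus strand), with the match in capitals.
Chac1: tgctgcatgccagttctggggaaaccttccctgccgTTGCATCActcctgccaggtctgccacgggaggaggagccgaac
Herpud1: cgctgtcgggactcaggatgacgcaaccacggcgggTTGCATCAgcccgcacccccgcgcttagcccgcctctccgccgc

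Genes of amino acid supply, many of them ATF4 targets, were in part common to the knockdowns. Among 14 genes of serine, one-carbon and amino acid synthesis, 5 were higher and 1, Mthfd1l (-0.26), was lower, while 9 were called in the same direction in both arms with a difference whose 95% interval lay within 0.5 of 0. These counts overlap, so the 9 are not all genes without a call for the difference. Control ASO arrays were above control siRNA arrays by a median of 0.30 in this list, with 6 genes called. Cth, which makes cysteine, had the largest difference of the list. It was at 9.28, 9.25 and 9.21 with control siRNA, 9.19, 9.13 and 9.04 with p53 siRNA, 9.79 and 9.42 with control ASO, and 10.68, 10.63 and 10.63 with Pint ASO. The Pint ASO arrays stood above all others, and the difference was 1.16 ± 0.13 (adjusted p = 0.00023). Aldh1l2 (0.60), Shmt2 (0.44) and Mthfd2 (0.38), enzymes of mitochondrial folate metabolism, were next, and Shmt2 lost its call in most fits that left out 1 array. The count of 5 became 3 without control siRNA replicate 1, p53 siRNA replicate 3, control ASO replicate 2, Pint ASO replicate 1 or Pint ASO replicate 2.

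Of 14 amino acid transporters 5 were higher and 2 lower. The cystine importer Slc7a11 (0.96) and the cationic transporters Slc7a1 (0.77) and Slc7a3 (0.53) led the former, and Slc38a4 (-0.87) and Slc7a6 (-0.32) were the latter. Slc7a11 was also 0.87 higher with control ASO than with control siRNA (adjusted p = 0.00028). Of 17 aminoacyl-tRNA synthetases 7 were higher, led by Cars (0.80), Rars (0.43), Tars (0.42) and Iars (0.34), and only Kars (-0.27) was lower. Of 28 ribosome biogenesis genes 11 were higher and none lower, with a median of 0.28, led by Utp20 (0.71), Rrp12 (0.64), Rrp9 (0.57) and Nop2 (0.50). These counts were sensitive to single arrays: without control ASO replicate 2 they were 3 synthetases, 2 transporters and 5 ribosome biogenesis genes higher. With p53 siRNA replicate 1 or 3, Pint ASO replicate 2, or a single control siRNA array left out, 4 synthetases were higher. The ribosome biogenesis genes numbered 6 without control siRNA replicate 1 or 3 and 7 without p53 siRNA replicate 3. Tars and Slc7a3 were among the genes that lost their calls in some of these fits.

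Heat shock genes and endoplasmic reticulum chaperone genes differed in what they showed. None of 14 heat shock genes was called, and the 95% interval of each lay within 0.5 of 0. Of 18 endoplasmic reticulum chaperone genes 5 were lower and none higher, with a median of -0.17. The share called, 27.8%, was near the 24.1% over all genes. The 5 were Sdf2l1 (-0.71), Pdia6 (-0.60), Dnajc3 (-0.47, lost in most fits that left out 1 array), Pdia4 (-0.35) and Hsp90b1 (-0.33).

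Sterol synthesis was among the lists that moved in opposite directions. Cholesterol is made by a chain of enzymes whose genes SREBP2 switches on together. Of 18 genes, 16 were lower in the difference and none higher, with a median of -0.64. p53 siRNA raised 16, with a median effect of 0.46, Pint ASO lowered 11, with a median effect of -0.24, and 11 genes were called in both arms. Cyp51, the lanosterol demethylase, stood at 9.44, 9.39 and 9.47 with control siRNA, 10.00, 10.07 and 10.11 with p53 siRNA, 9.37 and 9.16 with control ASO, and 8.87, 8.80 and 8.68 with Pint ASO. It was apart in both arms, with a difference of -1.11 ± 0.11 (adjusted p = 0.00012). The isomerase Idi1 (-1.09), the reductase Dhcr7 (-1.08) and the synthase Hmgcs1 (-0.96) followed, and Sc5d (-0.20) and Msmo1 (-0.17) were not called.

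Glycolysis genes were mostly lower in the difference as well. Of 16, 11 were lower, with a median of -0.39, led by the pyruvate dehydrogenase kinase Pdk1 (-1.02), Aldoc (-0.85), Pfkl (-0.78) and Tpi1 (-0.66), and only the neuronal enolase Eno2 (0.55) was higher. p53 siRNA raised 10 of the 16 and Pint ASO lowered 7. Of 32 respiratory chain genes 10 were lower, none higher and 22 not called, with a median of -0.20, led by Atp5o (-0.58), Ndufa4 (-0.56), Uqcrh (-0.41) and Cox7a2 (-0.36). Cox7a2 kept its call only without Pint ASO replicate 2 among the fits that left out 1 array, and Uqcrh lost its call without control ASO replicate 2. The calls were mostly in the Pint arm, where 14 were lowered, against 2 lowered by p53 siRNA. The respiratory chain count became 4 without control ASO replicate 2 and 5 without control siRNA replicate 2, p53 siRNA replicate 2 or p53 siRNA replicate 3, and 6 without Pint ASO replicate 1.

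Calls among lysosomal genes were mostly in the Pint arm, but most of the genes were not called for the difference. Of 44, Pint ASO lowered 29 and p53 siRNA lowered 8 and raised 4. For the difference 16 were lower, 4 higher and 24 not called, with a median of -0.19. Lipa, the acid lipase, went from 11.62 and 11.54 with control ASO to 10.80, 10.93 and 10.75 with Pint ASO, and was at 11.56, 11.54 and 11.64 with control siRNA against 11.77, 11.70 and 11.80 with p53 siRNA. Neither arm overlapped, but only the Pint ASO effect was called, and the difference was -0.93 ± 0.09 (adjusted p = 0.00011). The ganglioside activator Gm2a (-0.88), the protease Lgmn (-0.79) and the sulfatase Arsb (-0.71) followed. The 4 higher were the proton pump subunits Atp6v1h (0.64) and Atp6v0d1 (0.24), the chloride transporter Clcn7 (0.40) and Cd68 (0.57), which fell in both arms and further with p53 siRNA.

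Many matrix genes fell with Pint ASO and rose with p53 siRNA. Of 24 proteoglycan and elastic fibre genes 17 were lower in the difference and none higher, with a median of -0.81, and 12 were called in opposite directions. Besides Aspn, Prelp and Ogn the lowest was Fbn2, a fibrillin of elastic microfibrils, at 9.41, 9.47 and 9.45 with control siRNA, 10.31, 10.33 and 10.30 with p53 siRNA, 9.23 and 9.09 with control ASO, and 8.13, 8.21 and 8.13 with Pint ASO. Each arm was apart, and the difference was -1.87 ± 0.07 (adjusted p = 2.3e-06).

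Of 23 collagen genes listed 12 were lower, with a median of -0.32. The collagen X gene Col10a1 was not in the list. It fell in both arms, by 0.77 with p53 siRNA and 0.75 with Pint ASO, and was not called for the difference. Col3a1, the fibrillar collagen III chain, stood at 10.14, 10.17 and 10.11 with control siRNA, 10.89, 10.75 and 10.80 with p53 siRNA, 9.99 and 9.99 with control ASO, and 9.04, 9.07 and 9.02 with Pint ASO. The groups of both arms were apart, for a difference of -1.62 ± 0.07 (adjusted p = 2.7e-06). Col1a2 (-1.09), Col6a2 (-1.03) and Col6a1 (-0.99) were next. Only Col18a1, a basement membrane collagen, was higher (0.45), since p53 siRNA lowered it.

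Of 26 matricellular and adhesion glycoprotein genes 14 were lower, led by Ccn5, Ccn3 (-1.17), the periostin gene Postn (-1.12) and the laminin chain gene Lama4 (-1.11). The 2 higher were Ccn1 (0.52) and Ccn2 (0.85), growth-factor- and YAP-induced members of the same family as Ccn5, which rose with Pint ASO and fell with p53 siRNA. Genes of matrix breakdown divided: of 21 metalloproteases, plasminogen activation genes and inhibitors 11 were lower, led by Mmp19 (-1.34) and the aggrecanase Adamts5 (-1.28). The 5 higher were Mmp10 (1.44), Mmp13 (1.05), Plau (0.64), Plaur (0.62) and Mmp9 (0.37). Mmp10, the protease stromelysin 2, was at 11.04, 10.98 and 10.99 with control siRNA and 10.02, 9.95 and 9.94 with p53 siRNA, and at 11.01 and 10.99 with control ASO and 11.46, 11.45 and 11.34 with Pint ASO, so that its 2 controls lay together and the knockdowns moved it to either side.

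Fibroblast markers moved with the matrix. Of 16 markers of fibroblasts, 8 of which are also matrix genes in the lists above, 12 were lower in the difference and none higher, with a median of -0.74. Pint ASO lowered 12 and p53 siRNA raised 9. Their mean level was 11.02 to 11.07 in the Pint ASO arrays, 11.48 to 11.49 in the control ASO arrays, 11.58 to 11.64 with control siRNA and 11.89 to 11.90 with p53 siRNA. The genes Vim (0.05), Fn1 (-0.10), Fap (0.05) and Twist1 (-0.29), also fibroblast markers, were not called, so that the list did not move as a whole. Mean levels of the epithelial, macrophage and blood, endothelial, skeletal muscle and neural marker lists lay between 6.74 and 7.74 in every array. Of these lists 3 of 8 endothelial genes were called (1 higher, 2 lower), 1 epithelial gene was called each way, and 1 gene was called in each of the others. The adipocyte list, at 7.72 to 8.19, had 1 called gene of 5, the lipoprotein lipase gene Lpl (-1.37). In bulk RNA fewer cells of a kind and less RNA per cell cannot be told apart, and the part of cell identity in the matrix result was not tested.

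Innate immune genes had the lowest median of any list. Of 16 genes listed as complement and acute phase, 15 were lower in the difference and none higher, with a median of -1.19. Most such genes encode proteins secreted by fibroblasts and liver in inflammation, and the metalloreductase gene Steap4 was listed with them. Pint ASO lowered 15, with a median effect of -0.86, p53 siRNA raised 13, and 13 were called in opposite directions. After Steap4 and Serpina3n came Serping1, the C1 inhibitor, at 11.12, 11.05 and 11.05 with control siRNA, 11.64, 11.77 and 11.73 with p53 siRNA, 10.69 and 10.84 with control ASO, and 9.67, 9.73 and 9.66 with Pint ASO. Its groups did not overlap and the difference was -1.73 ± 0.08 (adjusted p = 4.5e-06). The lipopolysaccharide-binding protein gene Lbp (-1.69) was next, and Orm1 (0.01) was the gene not called. Control ASO arrays were below control siRNA arrays by a median of 0.28 in this list, with 6 genes called.

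Of 31 chemokine and cytokine genes 18 were lower and 3 higher, with a median of -0.52, and 13 were called in opposite directions. The alarmin Il33 (-1.81), the neutrophil chemokine gene Cxcl5 (-1.52) and the interleukin 1 antagonist gene Il1rn (-1.37) followed Cxcl15. Il33 had a mean of 9.11 ± 0.16 (SD, n = 2) with control ASO and stood at 7.68, 7.69 and 7.16 with Pint ASO. It was at 9.72, 9.59 and 9.72 with control siRNA against 9.85, 9.84 and 9.98 with p53 siRNA, where the effect of 0.21 was not called. The 3 higher were Lif, the macrophage growth factor gene Csf1 (0.56) and Il15 (0.31).

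Interferon-stimulated genes differed in that the p53 arm carried most of the separation. Of 34, 28 were lower in the difference and none higher, with a median of -0.77. p53 siRNA raised 28, with a median effect of 0.56, and Pint ASO lowered 12, with a median effect of -0.23. In 17 of the 28 only the p53 siRNA effect was called, and in 10 the effects were opposite. Iigp1, an immunity-related GTPase, was at 8.59, 8.39 and 8.43 with control siRNA, 9.55, 9.80 and 9.98 with p53 siRNA, 8.97 and 8.78 with control ASO, and 8.50, 8.22 and 8.03 with Pint ASO. The Pint ASO arrays lay below their own controls and in the range of the control siRNA arrays or under it, and the difference was -1.93 ± 0.20 (adjusted p = 0.0002). The nucleic acid sensor Zbp1 (-1.58), the immunoproteasome subunit Psmb8 (-1.30) and the regulator Irf7 (-1.26) were next.

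The core of the interferon-stimulated response element, searched as GAAA, any 2 bases and GAAA again, on either strand, was in the windows of 11 of the 24 interferon-stimulated genes that have one. A window was found for 24 of the 34, and the others could not be searched. The list was also drawn up by function. No comparison is therefore made with all genes that have a window, of which 3.53% held the core. Stretches of Gbp3 and Ifit3, both members of the list, are given to show the letters themselves, 80 bases upstream of the start with the matches in capitals (chr3:142559964-142560043 and chr19:34583372-34583451, both plus strand).
Gbp3: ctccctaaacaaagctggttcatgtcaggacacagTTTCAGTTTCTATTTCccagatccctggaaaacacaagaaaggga
Ifit3: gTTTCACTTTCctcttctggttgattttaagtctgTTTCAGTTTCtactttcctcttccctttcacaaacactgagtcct

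**Figure D5:**
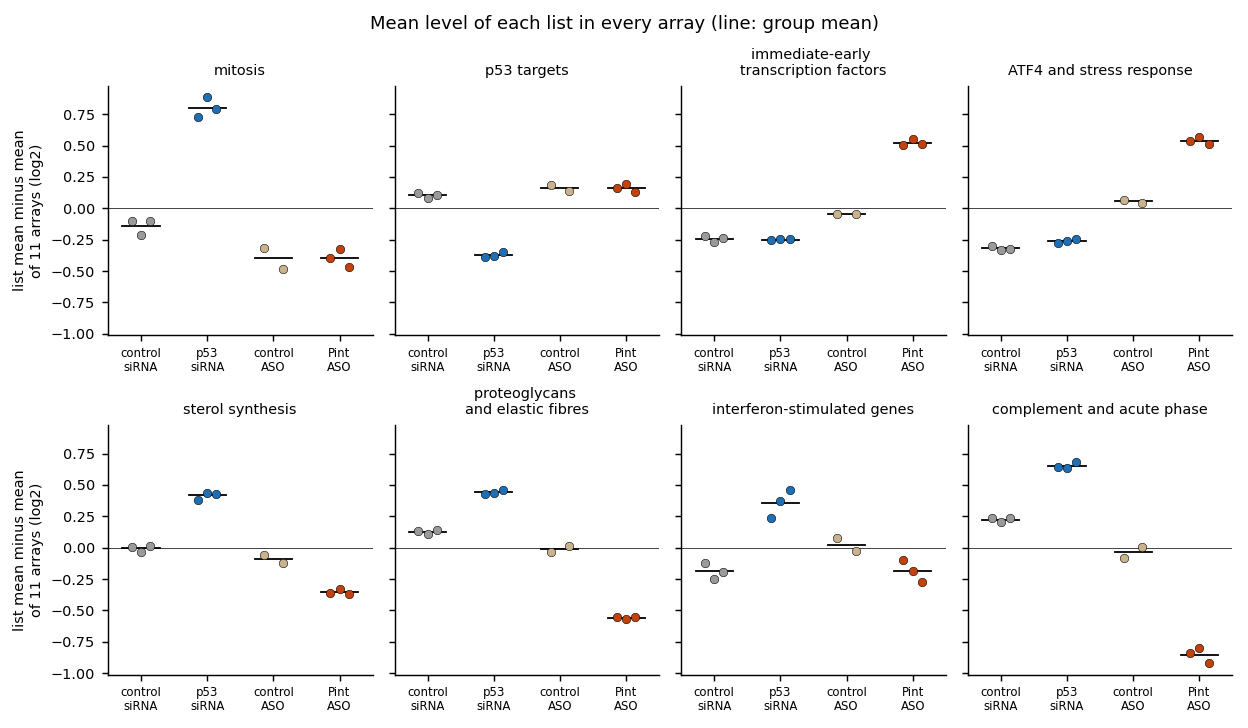
Mean log2 level of the tested genes of 8 lists in each of the 11 arrays, less the mean of that list over all arrays, with a line at each group mean. Mitosis, p53 targets and interferon-stimulated genes stand apart mainly in the p53 siRNA arrays, immediate-early and ATF4 genes in the Pint ASO arrays, and sterol, proteoglycan and complement genes move to opposite sides.

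Several lists divided within themselves and had medians near 0. Of 37 TGF-beta and BMP genes 7 were higher and 7 lower, with a median of -0.04. The ligand genes Bmp2 (1.02) and Inhba (0.78) and the inhibitory gene Smad7 (0.87) were higher, and the co-receptor gene Tgfbr3 (-0.79) was lower. Of 26 antioxidant and glutathione genes 5 were higher and 7 lower. Heme oxygenase, Hmox1 (1.10), rose with Pint ASO and fell with p53 siRNA, and the extracellular superoxide dismutase Sod3 (-1.54), the glutathione transferase Gstm1 (-1.22) and Mgst1 (-0.93) were lower. Of 27 apoptosis regulators that are not in the p53 target list 3 were higher and 5 lower, the furthest being the inflammatory caspases Casp12 (-1.92) and Casp4 (-0.69), the mitotic Birc5 (-0.77) and Bcl2 (0.50). The share called in this list, 29.6%, was near the 24.1% over all genes. Of 24 contractile and SRF target genes 3 were higher and 6 lower, among them Cnn1 (-0.70), Des (0.53), Acta1 (0.45) and Csrp1 (-0.42). Acta1 was not called without control ASO replicate 1 (adjusted p = 0.073).

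Few genes of Polycomb, the complex tied to Pint, were called. Of 26 subunit genes 3 were called, a share of 11.5% against 24.1% of all genes: Pcgf3 (0.59), Aebp2 (0.45) and Phf19 (-0.30), of which Phf19 lost its call in most fits that left out 1 array. The 95% interval lay within 0.5 of 0 for 18 of the 26. Among 60 developmental regulators, many of them known Polycomb targets, 10 were higher and 15 lower, with a median of -0.07. Nkx2-9 and Hey2 have been described. Gata3 (0.76) was higher and the homeobox gene Meox2 (-1.05) lower. Of 35 Hox genes 1 was higher, Hoxc13 (0.97), and 5 lower: Hoxc8 (-0.65), Hoxc10 (-0.54), Hoxc9 (-0.49), Hoxa10 (-0.43) and Hoxc6 (-0.36). The share of Hox genes called, 17.1%, was below the 24.1% over all genes. Without control ASO replicate 2 the count of lower Hox genes was 2, with Hoxc8 (adjusted p = 0.051) and Hoxc10 (adjusted p = 0.058) among those lost.

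A part of the response was common to both knockdowns. Of the 702 genes called in the same direction in both arms, 517 had a 95% interval of the difference within 0.5 of 0, 339 of them lower and 178 higher. Some of the 517 are also among the 203 called for a difference in the same direction, since an interval within the limit can leave out 0. The limit is close to the median absolute difference of called genes, 0.49. Gpx3, a secreted glutathione peroxidase, moved furthest: it was at 10.66, 10.51 and 10.67 with control siRNA, 9.33, 9.42 and 9.43 with p53 siRNA, 10.22 and 10.42 with control ASO, and 9.28, 9.25 and 9.33 with Pint ASO. It fell by 1.22 and 1.04, and the difference was 0.19, with a 95% interval from -0.04 to 0.41. The ephrin gene Efna3, Tcea3, Ccdc3 and the collagen X gene Col10a1 fell in both arms, by 1.04 and 0.78, 0.86 and 0.81, 0.74 and 0.81, and 0.77 and 0.75 with p53 siRNA and Pint ASO in turn. Efna3 was also called for a small difference (0.26), a call lost in most fits that left out 1 array. The cell-cycle repressor gene E2f7, Tent5a, Ifrd2, Ak4 and Adam12 rose in both, by between 0.43 and 0.70.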

How the data were processed

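Per the labels, total RNA (300 ng) was amplified and hybridised to Affymetrix mouse arrays. The authors deposited 1 table of log2 values for the 11 arrays, normalized by RMA according to the submitters' processing notes. The study's methods name different mouse array models in different places, and the version of RMA is not given in the sources used here. Depth has no meaning for arrays, and their number limits the precision.

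Probe sets were named from the supplied platform annotation: 21640 have 1 symbol, 1321 several and 11799 none, and only the first kind names a gene. Group means of the 4 groups were fitted with limma 3.58.1 (R 4.3.3) on probe sets over 6 in 2 arrays of any group, and the difference of effects, both effects and the difference of the controls were tested as contrasts (eBayes, Benjamini-Hochberg adjustment over all probe sets tested, threshold 0.05). The script was tested on simulated data. Lists are described by counts and medians with no test. Named genes are Lncpint, the 15 highest and 15 lowest differences, up to 4 called genes per list by size, 5 per direction of genes moved oppositely and alike, and members of counts of 5 or fewer; some members of the printed promoters fall outside this rule and were chosen for their match. The gene lists, rules and tests were chosen with earlier results of these data known. Promoter windows are RefSeq's for GRCm38.p6.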

Additional observations from a re-analysis of the deposited data

How the results depend on the processing

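Called probe sets numbered 4830 (2382 higher, 2448 lower) and stayed within 1.5 times of that under other filters, median centring, renormalization, an intensity trend and a robust prior. Calling by a B statistic over 3 left 941 (394 higher, 547 lower). The replicate numbers of the 2 control ASO arrays are not the same in the titles as in the descriptions. Deviations of same-numbered arrays had r of -0.28, -0.18 and -0.04 in the siRNA arm, -0.05 and -0.42 in the ASO arm by title, and 0.42 and 0.37 there by description. The siRNA arrays carry the same numbers in titles and descriptions, and their pairs were all negative, so the numbers were not taken as pairs. That check does not cover the ASO arm, where the values by description were positive. A block by description number within arms was not fitted. A replicate block by title number left 3686 called, by description number 4060, and by title number within arms, which fits more terms, 1927 (889 higher, 1038 lower). Leaving out 1 array gave 3755 to 4558 calls. At an adjusted p under 0.01 the genes moved in opposite directions numbered 407, those with only the Pint ASO effect called 904, and those moved unequally in the same direction 65. With 0.3 as the limit, 276 genes moved alike.

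No list median changed sign among the 18 lists followed through every setting. The proteoglycan median was -0.89 under both the study's filter and the filter over 7, and -0.72 without a filter, and the complement median was -1.07 without a filter and -1.29 over 7. Without 1 array the medians ran from 0.48 to 0.59 for immediate-early genes, 0.34 to 0.42 for MAPK feedback, 0.41 to 0.48 for ATF4 genes, -0.62 to -0.45 for chemokines, -0.70 to -0.62 for sterol synthesis, -0.82 to -0.73 for proteoglycans and -0.31 to -0.26 for matricellular genes. Of 145 named genes called, 15 lost the call without some array and 27 in any setting, and none changed direction. The control ASO group has 2 arrays, so leaving 1 out assumes that the lone array varies like the other groups.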
